A study of Mus musculus with 12 samples.

Results

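The genes described here are the machinery that loads peptides onto major histocompatibility complex (MHC) class I molecules, measured in colorectal tumors of mice. They are 10 genes chosen by symbol: H2-K1, H2-D1, B2m, Tap1, Tap2, Tapbp, Psmb8, Psmb9, Psmb10 and Nlrc5. Earlier results of these data were known when they were chosen. Their counts set against the shares over all genes are therefore a description and not an independent test. Each gene was represented by the probe set that the array annotation assigns to that symbol alone, and where a gene had several, by the one with the highest mean over the 12 arrays. By this rule 9 of the 10 genes had a value, out of 22180 genes with such a probe set. H2-D1 was the exception, since its probe set is shared with H2-Q2. All 9 also passed the filter that left out the 25% of genes with the lowest mean, and 16635 genes were tested.

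All mice carried autochthonous colorectal tumors induced with azoxymethane and dextran sulfate (AOM/DSS), a carcinogen followed by an agent that inflames the colon. The tumors were fixed, embedded in paraffin and separated by laser-capture microdissection into stroma and tumor tissue. There were 4 groups of 3 samples: Stat3dm stroma, Stat3wt stroma, Stat3dm tumor and Stat3wt tumor. In Stat3dm mice Stat3 was deleted conditionally in the myeloid compartment, and Stat3wt mice were wild type, so both tissues came from animals with and without the deletion. No source used here names the promoter that drives the deletion or the age of the mice. A sample is a pool of 2 tumors from 1 mouse. The labels number samples 1 to 3 in each group without saying whether equal numbers of stroma and tumor mark the same mouse. The stated purpose of the series was to find stromal changes that depend on STAT3 in myeloid cells.

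MHC class I molecules display peptides from inside a cell to CD8+ T cells. H2-K1 and H2-D1 encode classical heavy chains, and B2m encodes beta-2-microglobulin, the light chain that every class I molecule needs at the surface. Psmb8, Psmb9 and Psmb10 encode the catalytic subunits of the immunoproteasome, which take the places of the constitutive subunits Psmb5, Psmb6 and Psmb7 and change which peptides are cut. Tap1 and Tap2 form the transporter that moves these peptides into the endoplasmic reticulum, and Tapbp encodes tapasin, which bridges the transporter and the empty class I molecule. Nlrc5 encodes the transactivator of class I genes. Interferon-gamma is known to induce most of these genes together.

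Of the 10 genes, 7 lie on chromosome 17, B2m lies on chromosome 2, and Psmb10 and Nlrc5 lie on chromosome 8. Psmb9, Tap1, Psmb8 and Tap2 follow one another without another annotated protein-coding gene between them, inside the class II region. Promoter windows of 300 bases, from 250 before to 50 after the annotated start, were taken from RefSeq (GRCm38.p6) for 8 of the 10 genes, and Tap2 and Nlrc5 are named only. They were searched on both strands for the interferon-stimulated response element (GAAA, any 2 bases, and GAAA again), TTCNNNGAA (the gamma-activated sequence), the NF-kB motif and CCAAT. Shown here are the windows of the light chain and the classical heavy chains, of Tap1, whose window overlaps that of Psmb9, and of Psmb8. Capitals mark the matches, which are letters in a window and not measured binding.
B2m, chr2:122147437-122147736, plus strand: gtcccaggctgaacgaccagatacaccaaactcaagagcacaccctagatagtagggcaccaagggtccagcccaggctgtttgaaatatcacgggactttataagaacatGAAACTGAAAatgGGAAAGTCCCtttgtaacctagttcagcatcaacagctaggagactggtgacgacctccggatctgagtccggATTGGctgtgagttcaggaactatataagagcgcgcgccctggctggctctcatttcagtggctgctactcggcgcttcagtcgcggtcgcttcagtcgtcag
H2-K1, chr17:34000298-34000597, minus strand: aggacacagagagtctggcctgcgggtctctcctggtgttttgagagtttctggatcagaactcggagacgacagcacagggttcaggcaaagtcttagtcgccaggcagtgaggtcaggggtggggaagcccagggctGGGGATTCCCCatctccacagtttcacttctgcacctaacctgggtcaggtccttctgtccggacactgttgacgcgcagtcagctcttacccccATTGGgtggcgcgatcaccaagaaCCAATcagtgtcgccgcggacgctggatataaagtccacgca
H2-D1, chr17:35262844-35263143, plus strand: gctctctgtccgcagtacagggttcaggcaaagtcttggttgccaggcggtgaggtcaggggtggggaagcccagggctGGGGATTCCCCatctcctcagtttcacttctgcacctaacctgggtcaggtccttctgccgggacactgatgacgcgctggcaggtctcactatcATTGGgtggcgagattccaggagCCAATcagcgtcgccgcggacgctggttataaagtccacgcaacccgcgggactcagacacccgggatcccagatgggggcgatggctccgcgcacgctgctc
Tap1, chr17:34187306-34187605, plus strand: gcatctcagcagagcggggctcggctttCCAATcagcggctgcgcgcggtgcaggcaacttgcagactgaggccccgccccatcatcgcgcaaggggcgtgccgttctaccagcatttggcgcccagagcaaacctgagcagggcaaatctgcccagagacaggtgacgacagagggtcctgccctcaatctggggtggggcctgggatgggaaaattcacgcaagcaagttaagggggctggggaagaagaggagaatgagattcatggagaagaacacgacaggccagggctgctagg
Psmb8, chr17:34197945-34198244, plus strand: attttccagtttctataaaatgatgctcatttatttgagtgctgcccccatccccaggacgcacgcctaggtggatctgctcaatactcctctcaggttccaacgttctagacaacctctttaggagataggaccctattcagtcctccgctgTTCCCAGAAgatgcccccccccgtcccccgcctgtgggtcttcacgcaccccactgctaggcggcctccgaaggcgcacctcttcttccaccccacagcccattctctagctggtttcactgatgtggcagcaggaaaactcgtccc

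In the B2m window the capitals are, from the 5′ end, the interferon-stimulated response element, an NF-kB match and CCAAT on the reverse strand. An exact match of that response element was found in 1 of the 8 genes with a window, B2m, and in 3.44% of all 32851 promoter windows. Sites that depart from the searched letters were not marked or counted, so a window without a match may still hold a variant element. NF-kB matches were found in 3 of the 8 genes, B2m, H2-K1 and H2-D1, against 4.51% of all windows. In H2-K1 and H2-D1 the first run of capitals holds overlapping NF-kB matches on both strands, and the other runs are CCAAT. The gamma-activated sequence was in 1 of the 8, Psmb8, and in 8.3% of all windows. CCAAT was in 6 of the 8, the exceptions being Psmb8 and Psmb10, and in 37.4% of all windows. Tap1 and Psmb9 are transcribed away from each other, and their windows share 275 bases and the same CCAAT letters.

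The deposited values are log2 signals, on which a difference of 1 is a doubling of signal. Array medians ranged from 4.20 to 4.43 and the standard deviation over probe sets from 1.60 to 1.91. The widest spreads were those of Stat3wt tumor 3 (SD 1.91) and Stat3dm tumor 3 (SD 1.85). Within groups, arrays correlated at r between 0.881 and 0.967 over the 16635 genes tested. Epithelial markers checked the dissection: 0 of 10 were higher in stroma than in tumor in either genotype, with median log2 differences of -0.95 in Stat3dm and -1.04 in Stat3wt mice. Stromal samples were not free of them, since the mean level of the epithelial markers was 7.12 to 8.56 in Stat3dm stroma and 7.53 to 7.87 in Stat3wt stroma, against 8.47 to 9.28 in Stat3dm tumor and 8.46 to 9.15 in Stat3wt tumor. Stat3dm stroma 1 was the highest stromal sample at 8.56, above Stat3dm tumor 1 at 8.47 and Stat3wt tumor 2 at 8.46. Stat3 itself had log2 signals of 7.35, 7.32 and 7.40 in Stat3dm stroma, against 6.72, 7.33 and 8.02 in Stat3wt stroma. In tumor tissue it had 7.08, 7.28 and 7.97 in Stat3dm and 7.48, 7.43 and 8.22 in Stat3wt samples. Its genotype difference was 0.00 ± 0.32 (SE) in stroma and -0.27 ± 0.32 (SE) in tumor, and the groups overlapped in both. This does not check the labels, since the deletion concerns myeloid cells only and the position of the probes relative to the deleted part is unknown.

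Stroma was compared first, as the tissue the series is about. All 9 class I genes had higher log2 signals in Stat3dm than in Stat3wt stroma, against 47.2% of all genes, and for all 9 the lowest Stat3dm sample lay above the highest Stat3wt sample. Over all 16635 genes, 5.13% had groups that did not overlap in this direction. The median log2 difference of the 9 was 0.71, against -0.02 over all genes tested. Differences ranged from 0.40 for B2m to 0.84 for Psmb9, which are 1.32-fold and 1.79-fold. None of the 9 passed limma's test adjusted over all genes (Benjamini-Hochberg, 0.05). That test called 0 of 16635 genes (0%), with a smallest adjusted p of 0.0637, and 844 genes had an unadjusted p under 0.05. At that unadjusted limit 9 of the 9 class I genes were higher, against 3.14% of all genes. Here and below, n is 3 samples a group. The labels do not say that the samples of a group come from different mice, so p-values measure only the spread between these samples.

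**Figure D1:**
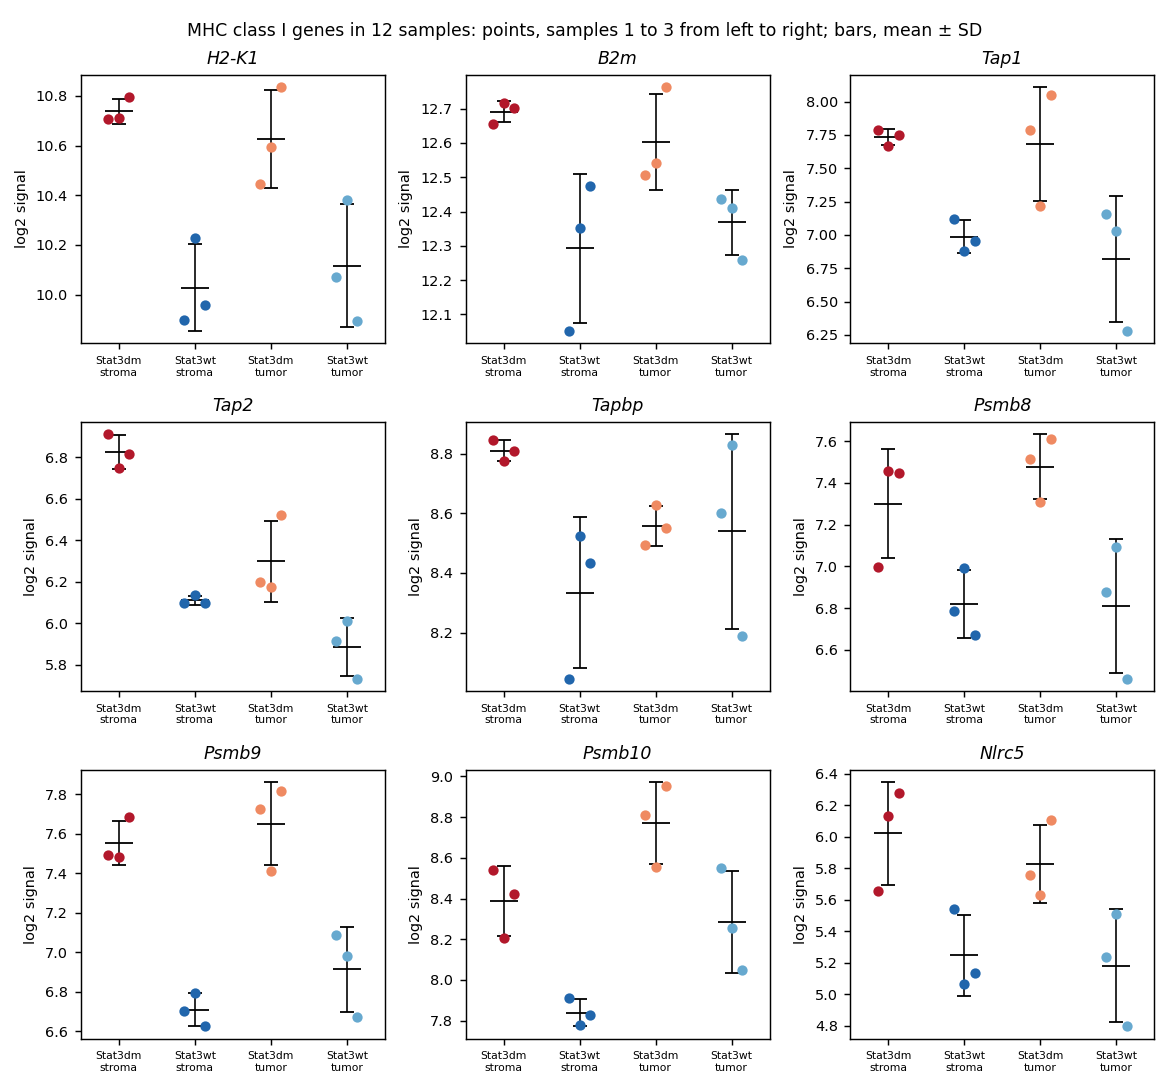
Log2 signal (vertical axes) of the 9 measured MHC class I genes in Stat3dm stroma, Stat3wt stroma, Stat3dm tumor and Stat3wt tumor, with points for samples 1 to 3 and bars for the group mean ± SD (n = 3). Every Stat3dm stroma point lies above every Stat3wt stroma point for all 9 genes, and the same holds in tumor for 8, Tapbp being the exception.

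Among the molecules that reach the surface, H2-K1 had log2 signals of 10.71, 10.71 and 10.80 in Stat3dm stroma, against 9.90, 10.23 and 9.96 in Stat3wt stroma. The Stat3dm samples lay close together and above all Stat3wt samples. H2-K1 differed by 0.71 ± 0.20 (SE; 95% interval 0.29 to 1.13), with an adjusted p of 0.530 in limma. Probes of H2-K1 can share sequence with other class I heavy chains, so part of its signal may come from them. The probe set shared by H2-D1 and H2-Q2 averaged 5.35 in Stat3dm and 5.11 in Stat3wt stroma, a difference of 0.24 that cannot be given to either gene. B2m had 12.66, 12.72 and 12.70 in Stat3dm stroma, against 12.05, 12.35 and 12.47 in Stat3wt stroma. Its groups did not overlap, and its difference of 0.40 ± 0.18 (SE) was the smallest of the 9 (adjusted p = 0.981, limma).

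Both subunits of the peptide transporter were higher in Stat3dm stroma. Tap1 had log2 signals of 7.79, 7.67 and 7.75 in Stat3dm stroma, against 7.12, 6.88 and 6.95 in Stat3wt stroma, a difference of 0.75 ± 0.26 (SE; adjusted p = 0.721, limma). Tap2 had 6.91, 6.75 and 6.82 in Stat3dm stroma, against 6.10, 6.14 and 6.10 in Stat3wt stroma. Tap2 had the least spread in Stat3wt stroma of all 9 genes (SD 0.02), and its difference was 0.72 ± 0.18 (SE; 95% interval 0.33 to 1.10; adjusted p = 0.369, limma). Tapbp, the bridge to the transporter, had 8.85, 8.78 and 8.81 in Stat3dm stroma, against 8.05, 8.52 and 8.43 in Stat3wt stroma. Stat3wt stroma 1 was the lowest of these for Tapbp and also for H2-K1 and B2m. Tapbp differed by 0.48 ± 0.21 (SE; adjusted p = 0.944, limma). Another probe set of Tapbp alone gave 0.17, and a probe set shared with Zbtb22 gave 0.08.

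Immunoproteasome subunits were higher in Stat3dm stroma while the constitutive subunits they replace had differences below 0. Psmb9 had log2 signals of 7.49, 7.48 and 7.68 in Stat3dm stroma, against 6.70, 6.79 and 6.63 in Stat3wt stroma. The gap between the groups was wider than the range within either. Psmb9 differed by 0.84 ± 0.19 (SE; 95% interval 0.44 to 1.25), with the lowest adjusted p of the 9 genes in stroma (0.304, limma). Psmb6, the constitutive subunit in its place, differed by -0.30 ± 0.25 (SE). Psmb10 had 8.54, 8.20 and 8.42 in Stat3dm stroma, against 7.91, 7.78 and 7.83 in Stat3wt stroma, a difference of 0.55 ± 0.20 (SE; adjusted p = 0.760, limma). Psmb7, its constitutive counterpart, differed by -0.24 ± 0.25 (SE). Psmb8 had 6.999, 7.46 and 7.45 in Stat3dm stroma, against 6.79, 6.994 and 6.67 in Stat3wt stroma. Stat3dm stroma 1 and Stat3wt stroma 2 nearly met for Psmb8, whose difference was 0.48 ± 0.22 (SE; adjusted p = 0.965, limma). Psmb5, the constitutive counterpart of Psmb8, differed by -0.26 ± 0.19 (SE; 95% interval -0.68 to 0.15). The constitutive subunits had adjusted p = 0.999 in limma, so no direction was established for them.

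**Figure D2:**
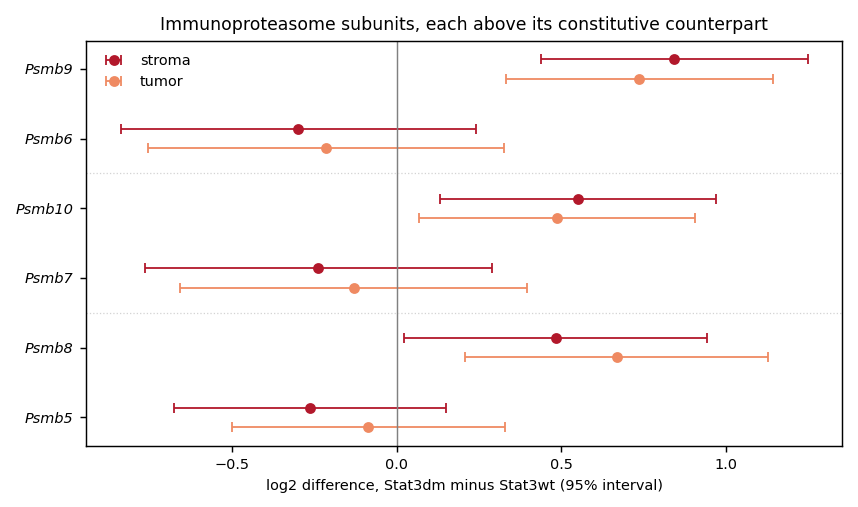
Log2 difference of Stat3dm minus Stat3wt (horizontal axis, points with 95% intervals from limma; n = 3 a group) for the 3 immunoproteasome subunits, each above the constitutive subunit it replaces, in stroma and in tumor. Intervals of Psmb9, Psmb10 and Psmb8 lie above 0 in both tissues, and those of Psmb6, Psmb7 and Psmb5 span 0.

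Nlrc5, the transactivator, had 5.66, 6.13 and 6.28 in Stat3dm stroma, against 5.54, 5.07 and 5.14 in Stat3wt stroma. The groups were separated by a narrow gap between Stat3dm stroma 1 and Stat3wt stroma 1. Nlrc5 differed by 0.77 ± 0.24 (SE; adjusted p = 0.641, limma).

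Further genes of the pathway were counted list by list. Of 10 further class I pathway genes (peptidases, chaperones and proteasome activators), 9 were tested, 6 had differences above 0 in stroma, and the median was 0.09. At an unadjusted p under 0.05 there were 0. Tpp2, a cytosolic peptidase, differed by 0.45 ± 0.47 (SE), Tapbpl, a tapasin relative that edits bound peptides, by 0.24 ± 0.31 (SE), and Calr, a chaperone of the loading complex, by 0.19 ± 0.29 (SE). Of 14 subunits of the 20S proteasome outside the immunoproteasome, 12 were tested, 3 had differences above 0, and the median was -0.13. Psma3, a subunit of the outer ring, had the difference farthest from 0, -0.43 ± 0.29 (SE). Of 19 other class I heavy chains, 12 were tested, 9 had differences above 0 with a median of 0.27, and 4 were higher at an unadjusted p under 0.05, against 3.14% of all genes. H2-T24 differed by 0.56 ± 0.20 (SE; adjusted p = 0.746, limma), H2-M2 by 0.65 ± 0.23 (SE), and H2-T23, which encodes the nonclassical molecule Qa-1, by 0.60 ± 0.22 (SE).

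Regulators of class I genes were led by Irf1, a transcription factor that interferon-gamma induces. Irf1 had log2 signals of 7.63, 7.08 and 7.02 in Stat3dm stroma, against 6.19, 6.29 and 6.53 in Stat3wt stroma. Its groups did not overlap, and it differed by 0.91 ± 0.23 (SE; 1.87-fold; adjusted p = 0.420, limma). Of 25 regulators listed, 23 were tested, and 18 had differences above 0 in stroma, against 47.2% of all genes, with a median of 0.25. At an unadjusted p under 0.05, 3 were higher, against 3.14% of all genes. Those were Irf1, Ciita and Stat2. Ciita, the class II counterpart of Nlrc5, differed by 0.69 ± 0.24 (SE; adjusted p = 0.728, limma), and Stat2, which carries type I interferon signals, by 0.53 ± 0.23 (SE). Ifng, the gene of interferon-gamma, had 5.07, 3.84 and 4.03 in Stat3dm stroma, against 3.83, 3.82 and 3.71 in Stat3wt stroma. Stat3dm stroma 1 alone stood well above the others, and a mean of 3.65 over the arrays was the level below which genes were left out as dim. Rfx5, a subunit of the complex with which NLRC5 acts at class I promoters, differed by 0.23 ± 0.22 (SE).

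Leukocyte markers were, like the class I genes, higher in Stat3dm than in Stat3wt stroma. All 8 had differences above 0, with a median of 0.87, and their mean log2 level was 7.60 to 8.07 in Stat3dm stroma, against 6.40 to 7.38 in Stat3wt stroma. Ptprc, the pan-leukocyte gene that encodes CD45, had 6.81, 7.47 and 7.01 in Stat3dm stroma, against 5.27, 5.95 and 6.44 in Stat3wt stroma (difference 1.21 ± 0.35, SE; adjusted p = 0.546, limma). All 7 T cell markers also had differences above 0, with a median of 0.50, and mean levels of 5.43 to 6.14 in Stat3dm stroma and 5.23 to 5.48 in Stat3wt stroma. Cd8a, a chain of the CD8 coreceptor, differed by 0.50 ± 0.21 (SE). Of 5 B cell markers 3 were tested, and all 3 had differences above 0, with a median of 1.14. All 3 also had an unadjusted p under 0.05, against 3.14% of all genes higher at that limit. The mean level of the 4 B cell markers measured was 4.70 to 6.13 in Stat3dm stroma, against 4.15 to 4.38 in Stat3wt stroma. Macrophage markers were above 0 for 6 of 7 tested, with a median of 0.34. In bulk tissue, a change in the number of cells of a type and a change in RNA per cell cannot be told apart. With the leukocyte markers' mean as a covariate, the median difference of the 9 class I genes was 0.76, with B2m lowest at 0.14 and Nlrc5 highest at 1.18. The leukocyte mean did not overlap between the genotypes in stroma, so this fit cannot separate leukocyte content from genotype. The part of leukocytes in the class I differences was not tested. With the epithelial markers' mean as a covariate the class I median was 0.70. Without Stat3dm stroma 1, the stromal sample highest in epithelial markers, it was 0.67. Class II genes were also all on the Stat3dm side: all 9 tested had differences above 0 in stroma, with a median of 1.02. They include the protein-coding genes that flank the Psmb9 to Tap2 cluster, H2-DMb1 at 0.54 and H2-Ob at 0.51.

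**Figure D3:**
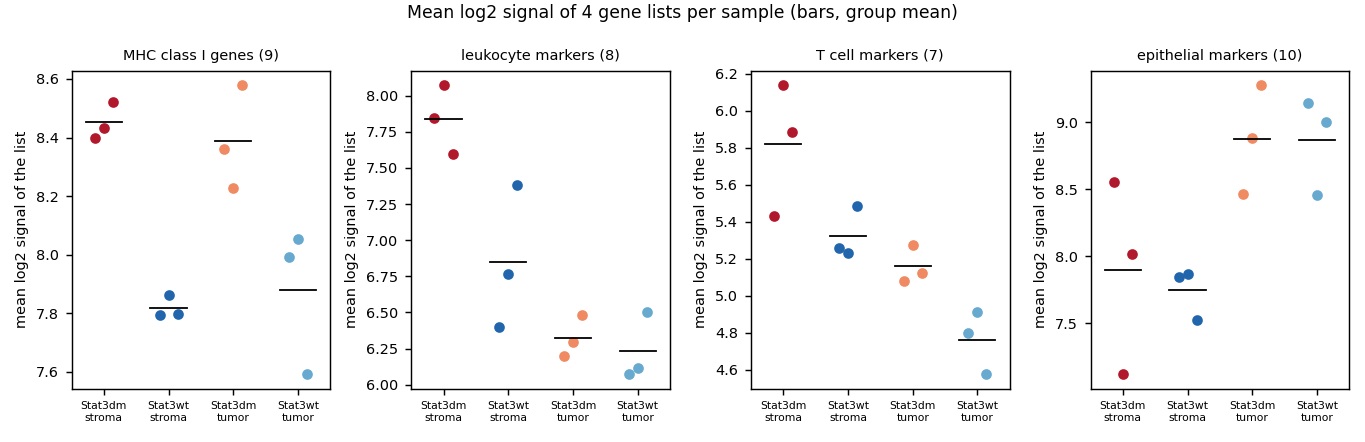
Mean log2 signal (vertical axes) of the 9 class I genes, 8 leukocyte markers, 7 T cell markers and 10 epithelial markers in each sample (points), with group means as bars, for Stat3dm stroma, Stat3wt stroma, Stat3dm tumor and Stat3wt tumor. Leukocyte markers separate Stat3dm from Stat3wt samples in stroma (7.60 to 8.07 against 6.40 to 7.38) and overlap in tumor (6.20 to 6.48 against 6.07 to 6.50). T cell markers overlap in stroma (5.43 to 6.14 against 5.23 to 5.48) and separate the genotypes in tumor (5.08 to 5.27 against 4.58 to 4.91). The class I genes separate the genotypes in both tissues.

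Tumor tissue was compared in the same way. All 9 class I genes again had differences above 0, from 0.02 for Tapbp to 0.86 for Tap1, with a median of 0.51 against -0.01 over all genes tested, of which 48.7% were above 0. Groups did not overlap for 8 of the 9, against 4.05% of all genes in this direction, and 7 were higher at an unadjusted p under 0.05, against 1.76%. None of the 9 passed the adjusted test. It called 3 of 16635 genes (0.018%), all lower in Stat3dm tumor. Deviations from the group means of equally numbered Stat3dm and Stat3wt tumor samples correlated at 0.32, 0.15 and 0.69. Stat3dm tumor 1 and Stat3wt tumor 2 correlated at 0.59, and the other unequally numbered pairs at -0.66 to 0.08. With the number as a block 89 genes passed, of which 0 were class I genes. Stat3wt tumor 3 was the lowest of its group for 9 of the 9 genes, and Stat3dm tumor 3 the highest of its group for 8. These are the 2 arrays of widest spread, and without them the median was 0.29 and Tapbp differed by -0.15.

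H2-K1 had log2 signals of 10.45, 10.59 and 10.84 in Stat3dm tumor, against 10.07, 10.38 and 9.89 in Stat3wt tumor, a difference of 0.51 ± 0.20 (SE; adjusted p = 0.671, limma). B2m had 12.51, 12.54 and 12.76 in Stat3dm tumor, against 12.44, 12.41 and 12.26 in Stat3wt tumor, a difference of 0.24 ± 0.18 (SE). For both chains every Stat3dm tumor sample lay above every Stat3wt tumor sample. The probe set shared by H2-D1 and H2-Q2 averaged 5.25 in Stat3dm and 5.06 in Stat3wt tumor.

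In tumor tissue Tap1 had the widest spread of the 9 genes, with 7.78, 7.22 and 8.05 in Stat3dm tumor, against 7.16, 7.03 and 6.28 in Stat3wt tumor. Its difference was 0.86 ± 0.26 (SE; 1.82-fold; adjusted p = 0.423, limma), and 0.41 without the 2 arrays of widest spread. Tap2 had 6.20, 6.18 and 6.52 in Stat3dm tumor, against 5.92, 6.01 and 5.73 in Stat3wt tumor (difference 0.41 ± 0.18, SE). The transporter genes were thus separated by genotype in tumor too, while tapasin was not. Tapbp had 8.49, 8.63 and 8.55 in Stat3dm tumor, inside the range of 8.60, 8.83 and 8.19 in Stat3wt tumor. Its difference of 0.02 ± 0.21 (SE) had a 95% interval of -0.42 to 0.46. The other probe set of Tapbp alone gave -0.08 in tumor. A probe set shared with Zbtb22 gave 0.35, which cannot be given to either gene.

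Psmb9 had 7.72, 7.41 and 7.82 in Stat3dm tumor, against 7.09, 6.98 and 6.67 in Stat3wt tumor, a difference of 0.74 ± 0.19 (SE; 1.67-fold; adjusted p = 0.294, limma). Psmb8 had 7.51, 7.31 and 7.61 in Stat3dm tumor, against 6.88, 7.09 and 6.46 in Stat3wt tumor, a difference of 0.67 ± 0.22 (SE; adjusted p = 0.504, limma). Both immunoproteasome subunits had separate groups. Psmb10 had 8.81, 8.55 and 8.95 in Stat3dm tumor, against 8.55, 8.25 and 8.05 in Stat3wt tumor, a difference of 0.49 ± 0.20 (SE). Its groups were separated narrowly, by 8.555 in Stat3dm tumor 2 and 8.551 in Stat3wt tumor 1. Psmb6, Psmb7 and Psmb5 differed by -0.21, -0.13 and -0.09. Nlrc5 had 5.76, 5.63 and 6.11 in Stat3dm tumor, against 5.24, 5.51 and 4.80 in Stat3wt tumor, a difference of 0.65 ± 0.24 (SE; adjusted p = 0.656, limma).

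**Figure D4:**
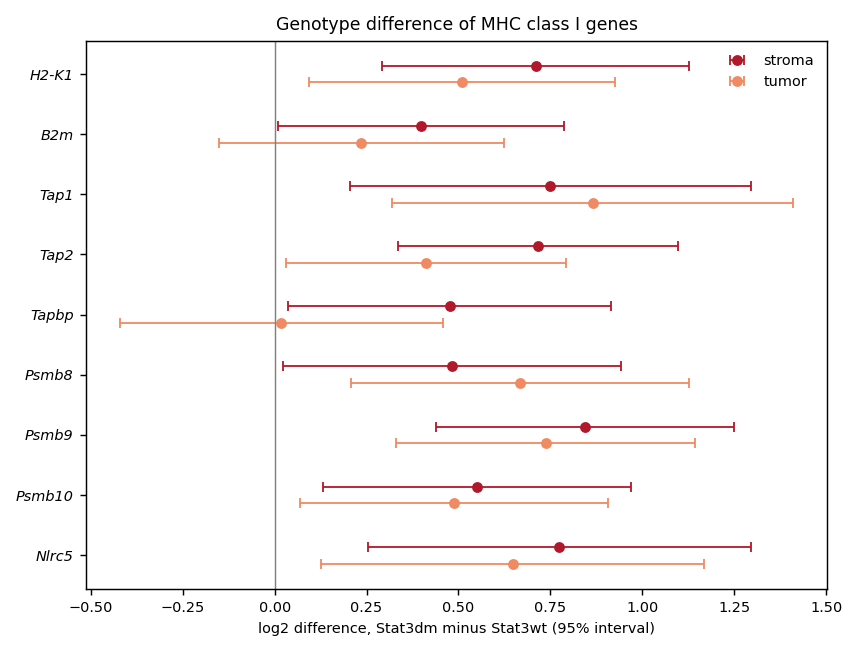
Log2 difference of Stat3dm minus Stat3wt (horizontal axis, points with 95% intervals from limma; n = 3 a group) for the 9 class I genes in stroma and in tumor. All points lie above 0, and the intervals of B2m and Tapbp in tumor span it.

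The lists around the class I genes were counted in tumor tissue in the same way. Differences were above 0 for 5 of 9 further pathway genes (median 0.11), for 1 of 12 subunits of the 20S proteasome outside the immunoproteasome (median -0.12), for 6 of 12 other heavy chains (median 0.03) and for 9 of 23 regulators (median -0.20). At an unadjusted p under 0.05 (limma), 1 of the heavy chains and 3 of the regulators were higher, against 1.76% of all genes. Lower at that limit were 2 regulators and 0 heavy chains, against 4.5% of all genes. The further pathway genes and the 20S subunits had 0 in either direction. Irf1 differed by 0.29 ± 0.23 (SE), Ifng by 0.13 and Rfx5 by -0.25. Ciita differed by 0.81 ± 0.24 (SE; adjusted p = 0.423, limma), and all 9 class II genes tested had differences above 0, with a median of 0.57. Of the leukocyte markers 6 of 8 had differences above 0, with a median of 0.09, and their mean level overlapped, at 6.20 to 6.48 in Stat3dm and 6.07 to 6.50 in Stat3wt tumor. T cell markers were above 0 for 7 of 7, with a median of 0.41, and had mean levels of 5.08 to 5.27 in Stat3dm tumor and 4.58 to 4.91 in Stat3wt tumor. Cd8a differed by 0.55 ± 0.21 (SE). B cell markers were above 0 for 3 of 3 tested, with a median of 0.42, and macrophage markers for 1 of 7, with a median of -0.26. The part of T cells and B cells in these differences was not tested. With the leukocyte covariate the class I median in tumor was 0.52.

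Whether the genotype difference itself differed between tissues was tested as an interaction, stroma minus tumor. The 9 genes gave values from -0.19 for Psmb8 to 0.46 for Tapbp, with a median of 0.13 against 0.02 over all genes. Tapbp had an interval of -0.16 to 1.08. None of the 9 passed, with adjusted p of 0.995 in limma, and 0 of 16635 genes were called (0%), with 401 at an unadjusted p under 0.05. A difference between stroma and tumor in the size of the genotype effect was therefore not shown for any of the 9.

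Averaged over both tissues, a contrast added after the values of each had been seen, Psmb9 rose in Stat3dm samples by 0.79 ± 0.13 (SE; adjusted p = 0.0254, limma). All 9 class I genes were above 0, against 47.4% of all genes. Psmb9 was the 1 class I gene of 9 to pass, against 47 of 16635 genes (0.283%), of which 14 were higher (0.0842%). Stroma and tumor samples may come from the same mice, and with genotype and number as a random block the adjusted p of Psmb9 was 0.0658 and 0 class I genes passed. Without the 2 arrays of widest spread it was 0.0795. Leaving out any 1 of 7 samples also took it past 0.05: 0.0570 and 0.0771 without Stat3dm stroma 1 and 3, 0.0743 and 0.0601 without Stat3wt stroma 2 and 3, 0.0594 without Stat3dm tumor 1, and 0.0537 and 0.0612 without Stat3wt tumor 2 and 3. H2-K1 (0.61), Tap1 (0.81) and Tap2 (0.56) each had an adjusted p of 0.0898 in limma, as had Ciita (0.75). Nlrc5 at 0.71, Psmb8 at 0.58 and Psmb10 at 0.52 had adjusted p of 0.113, 0.146 and 0.155 in limma. B2m at 0.32 (adjusted p = 0.483, limma) and Tapbp at 0.25 (adjusted p = 0.751, limma) were lowest. All 6 Stat3dm samples lay above all 6 Stat3wt samples for H2-K1, B2m, Tap1, Tap2, Psmb9 and Nlrc5, 6 of the 9 genes, against 28 of all genes tested (0.168%).

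Stroma was also compared with tumor within each genotype. In Stat3dm mice the 9 genes differed by -0.38 to 0.53, stroma minus tumor, with a median of 0.09 against -0.03 over all genes. In Stat3wt mice they differed by -0.45 to 0.22, with a median of -0.08 against -0.04. None passed, and 0 of 16635 genes were called in either genotype (0%), with 1610 genes in Stat3dm and 2783 in Stat3wt mice at an unadjusted p under 0.05. Deviations from the group means of equally numbered Stat3dm stroma and tumor samples correlated at 0.12, 0.16 and 0.30. Those of unequally numbered ones correlated at -0.29 to 0.12. With the number as a block 152 genes passed in Stat3dm mice, 0 of them class I genes, and 138 in Stat3wt mice. Leukocyte markers, by comparison, had a median difference of 1.54 in Stat3dm and 0.67 in Stat3wt mice.

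Tap2 and Psmb10 stood at the ends of this range in both genotypes. Tap2 was higher in stroma by 0.53 ± 0.18 (SE; adjusted p = 0.355, limma) in Stat3dm mice and by 0.22 (adjusted p = 0.466, limma) in Stat3wt mice. Psmb10 was lower in stroma, at -0.38 ± 0.20 (SE; adjusted p = 0.565, limma) in Stat3dm and -0.45 ± 0.20 (SE; adjusted p = 0.284, limma) in Stat3wt mice. For both genes the tissues did not overlap in either genotype, nor did they for Tapbp in Stat3dm mice (0.25). Over all genes the tissues did not overlap with stroma higher for 6.57% in Stat3dm and 8.88% in Stat3wt mice, and with stroma lower for 7.16% and 15% in the same order of genotypes. Of the 20S subunits outside the immunoproteasome, 12 of 12 had values below 0 in each genotype, with medians of -0.56 in Stat3dm and -0.48 in Stat3wt mice.

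Ordered by group mean, 6 of the 9 genes were highest in Stat3dm stroma, and the 3 immunoproteasome subunits were highest in Stat3dm tumor. The lowest group was Stat3wt stroma for 5 genes and Stat3wt tumor for 4. For all 9 genes both Stat3dm means lay above both Stat3wt means, though for Tapbp by little, with 8.56 ± 0.07 in Stat3dm tumor and 8.54 ± 0.33 in Stat3wt tumor (SD, n = 3 each). Within a genotype, neighbours in the order did not differ past the adjusted threshold for any gene.

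The 9 genes varied together. Over the 12 arrays, Pearson's r of their 36 pairs ran from 0.35 (Tap2 and Psmb10) to 0.90 (H2-K1 and Psmb9), with a median of 0.76. After each group's mean was taken out, r ran from 0.12 to 0.87 with a median of 0.52, and the highest was that of Tap1 and Psmb9, the neighbours whose promoter windows share 275 bases. These arrays share their normalization and tissue content, and 12 points are few. The mean of the 9 genes, each centred on its own mean, was 0.26, 0.30 and 0.39 in Stat3dm stroma and -0.34, -0.27 and -0.34 in Stat3wt stroma. In tumor it was 0.22, 0.09 and 0.44 in Stat3dm and -0.14, -0.08 and -0.54 in Stat3wt samples, so that the most distant samples were again Stat3dm tumor 3 and Stat3wt tumor 3.

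Of the genes outside the list, Il18bp followed that mean most closely over the 12 arrays (r = 0.91, Spearman's rho 0.92, and r = 0.91 without the 2 most distant samples). Il18bp encodes a secreted protein that binds interleukin-18. Its log2 signals were 6.55, 6.55 and 6.80 in Stat3dm stroma, against 5.84, 6.08 and 6.12 in Stat3wt stroma. In tumor they were 6.32, 6.28 and 6.52 in Stat3dm, against 5.98, 6.17 and 5.91 in Stat3wt samples, and the genotypes did not overlap in either tissue. Next were Ddx39b, an RNA helicase (r = 0.88), Tldc2 (r = 0.86), Mcoln2, an endolysosomal ion channel (r = 0.85), and Cbr3, a carbonyl reductase (r = 0.84). H2-Q4, a class I heavy chain, Rmi2, a partner of the BLM helicase, and Chga, the chromogranin of neuroendocrine cells, each had r = 0.83. Without the 2 most distant samples these 7 had r between 0.71 (H2-Q4) and 0.81 (Ddx39b). After each group's mean was taken out, r was 0.67 for Il18bp and ran from 0.54 (Cbr3) to 0.86 (H2-Q4) for the other 7. The 8 genes were picked for their r over the 12 arrays, so the values are a description.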

How the data were processed

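Gene expression was measured on 12 Affymetrix arrays, 1 per sample, from 50 ng of total RNA of microdissected paraffin material, per the labels' protocols. The deposited table holds log2 values that, per the submitters' processing notes, the authors computed by RMA with version 1.3.1 of Affymetrix Expression Console; counts or depth do not apply, and the number of arrays limits the precision. Of 41345 probe sets, 23521 have 1 gene symbol in the platform annotation, 1814 have several and 16010 are not listed there. Groups came from the sample titles. R 4.3.3 and limma 3.58.1 fitted a mean for each of 4 groups over all 12 arrays (lmFit, eBayes), with Benjamini-Hochberg adjustment over 16635 genes at 0.05. The procedure was first tested on simulated data with changes placed in Stat3dm stroma. In stroma it called 38 of 100 genes simulated at a log2 size of 1 and 93 of 100 at 2, with 6 false calls. A gene that did not pass is therefore not shown to be unchanged. Named genes were all 10 class I genes, the 3 genes with the smallest unadjusted p in stroma of 4 further lists (pathway genes, 20S subunits, other heavy chains, regulators), fixed comparison genes (Psmb5, Psmb6, Psmb7, Irf1, Stat3, Ifng, Rfx5), the markers Ptprc and Cd8a, and the 8 genes most correlated with the class I mean. H2-DMb1 and H2-Ob, which flank the cluster, were named after their values were seen. The class I genes and the lists were chosen with earlier results of these data known.

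Alternatives were 50% or 0% of genes left out as dim, the mean over probe sets, quantile normalization, median centring, replicate number as a fixed or random block, array weights, trended robust variance, array spread or marker levels as covariates, leaving out the 2 widest arrays or each sample, and fitting the compared groups alone. Deviations from the group means of equally numbered samples correlated at 0.12, 0.16 and 0.30 between Stat3dm stroma and Stat3dm tumor and at 0.32, 0.15 and 0.69 between Stat3dm and Stat3wt tumor, and at 0.44, -0.004 and 0.51 between Stat3wt stroma and tumor and 0.15, -0.04 and 0.11 between Stat3dm and Stat3wt stroma.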

Additional observations from a re-analysis of the deposited data

How the results depend on the processing

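In stroma all 9 class I genes stayed above 0 in all 26 alternatives run, in tumor in 19 of 26, and averaged over tissues in 25 of 25. Fitting the compared groups alone gives no value for the interaction and the average. The causes of the changes below were not tested. The estimation of array weights did not fully converge.

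Leaving out 1 sample at a time, genes called numbered 0 to 2 in stroma, 0 to 7 in tumor, 0 for the interaction, 0 to 22 and 0 to 8 for stroma minus tumor in Stat3dm and Stat3wt mice, and 16 to 69 averaged; class I genes numbered 0 in each planned comparison and 0 to 1 averaged. The class I medians were 0.65 to 0.72, 0.40 to 0.64, 0.03 to 0.24, 0.04 to 0.22, -0.17 to 0.04 and 0.53 to 0.65 in the same sequence. Single genes crossed 0 this way: Tapbp in tumor (-0.16 to 0.16), the interactions of Tap1 (-0.35 to 0.16), Psmb9 (-0.012 to 0.23), Psmb10 (-0.071 to 0.18) and Nlrc5 (-0.038 to 0.32), Tap1 in Stat3dm tissues (-0.18 to 0.23), and in Stat3wt tissues H2-K1 (-0.20 to 0.044), B2m (-0.17 to 0.045), Tap1 (-0.11 to 0.33), Psmb8 (-0.17 to 0.15) and Nlrc5 (-0.13 to 0.23).

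In tumor, 5 genes were called with 50% of genes left out or with trended robust variance. The mean over probe sets gave Tapbp -0.029 there. Quantile normalization gave 1 gene and a class I median of 0.64 in stroma, and interactions of -0.049 for Psmb9 and -0.22 for Psmb10. It gave 33 genes and Psmb9 0.059 in Stat3dm tissues, a median of 0.11, H2-K1 0.053, Tapbp 0.13 and Psmb9 0.11 in Stat3wt tissues, and averaged 90 genes with 2 class I genes. Median centring gave Tapbp -0.030 in tumor, Psmb8 -0.091 and Nlrc5 -0.033 in Stat3wt tissues, and 17 genes averaged.

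The fixed replicate block gave 28 genes in stroma, 89 in tumor, 152 and 138 for the tissues in Stat3dm and Stat3wt mice, and 292 averaged with 4 class I genes. The random block gave 62 and 5 for the tissues in that sequence, and 13 averaged with 0 class I genes. Pairing by number changed no other class I call. Array weights gave 164 genes, 3 class I genes and a median of 0.60 in stroma, and 1579, 3 and 0.28 in tumor, with Tapbp -0.0011. They gave 4 interactions with a median of 0.40 and Tap1 0.59. For Stat3dm tissues they gave 727 genes, 1 class I gene, Psmb8 0.013 and Psmb9 0.10, for Stat3wt tissues 3963 genes, 1 class I gene, H2-K1 0.051, Tap1 -0.20 and Nlrc5 -0.12, and averaged 945 with 6 class I genes.

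Array spread as a covariate gave 13 genes in stroma, 14 in tumor with Tapbp -0.011, 114 genes and Tap1 -0.0041 in Stat3dm tissues, B2m 0.051, Psmb8 -0.074 and Nlrc5 -0.017 in Stat3wt tissues, and 166 averaged with 3 class I genes. Without the 2 widest arrays, Tapbp was -0.15 in tumor, the interaction median 0.34, Tap1 0.34 and Psmb8 0.056, Stat3wt tissues gave Tap1 -0.11, Psmb8 -0.17 and Nlrc5 -0.13, and 24 genes averaged with 0 class I genes. The leukocyte covariate gave 8 genes in stroma, 15 in tumor, interactions of -0.070 for B2m, 0.19 for Tap1 and 0.047 for Psmb8, 1 gene, B2m -0.31, Psmb8 0.22 and Psmb9 0.25 in Stat3dm tissues, 1348 genes in Stat3wt tissues, and 207 averaged. The epithelial covariate gave 6 genes in tumor, and Psmb8 -0.23 and Nlrc5 -0.13 in Stat3wt tissues.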
